A study of Arabidopsis thaliana with 12 samples.

Results

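Adding noa1-2 to the nia1nia2 background was examined by setting 3 nia1nia2noa1-2 arrays (replicates 1 to 3) against 3 nia1nia2 arrays (replicates 2 to 4), which are 6 of the 12 arrays of the series. Of 13356 genes named by a probe set of their own, 6782 reached a mean log2 intensity of 6 or more in at least one of these genotypes and were compared. Below that floor the study treats signal as noise. The controls of this comparison were mutants themselves, because both genotypes carry the nia1 and nia2 mutations and differ by noa1-2. Col-0, the wild type, and noa1-2 alone, again with 3 arrays each, gave the same step where the nitrate reductase genes are intact. All seedlings were harvested whole at 15 days, 5 h after dawn, after growth on MS medium with 1% sucrose under 16 h of light and 8 h of darkness. The labels call the arrays of a genotype biological replicates. Each genotype was represented by 1 mutant line, and whole seedlings mix organs, so fewer cells of a type and less RNA per cell cannot be told apart.

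Nitrate reductase, encoded by NIA1 and NIA2, reduces nitrate to nitrite in the cytosol and can also reduce nitrite to nitric oxide (NO). NITRIC OXIDE ASSOCIATED1 (NOA1) was first taken for an NO synthase and is now known as a GTPase of the plastid that is needed for normal assembly of plastid ribosomes, and noa1 seedlings are pale. Plastid ribosomes make the proteins encoded in the plastid genome, while most plastid proteins, including the factors that splice and edit plastid RNA, are encoded in the nucleus. The series was made to learn how loss of NO changes the transcriptome. NIA1, NIA2 and NOA1 were not among the genes named here, so the targeted genes could not check the labels.

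The nia1nia2 arrays lay further apart than the others. The median SD of a gene over 3 arrays was 0.257 on the log2 scale in nia1nia2, against 0.115 in nia1nia2noa1-2, 0.115 in Col-0 and 0.106 in noa1-2. Across genes, nia1nia2 replicate 3 correlated better with the nia1nia2noa1-2 arrays (mean r = 0.958) than with its own group (0.947). Replicate 4 of nia1nia2 had the lowest mean correlation with its own group (0.936). For each nia1nia2noa1-2 array, the mean correlation with its own group was 0.985 to 0.989. Of 16 listed root markers 3 were measured. PYK10 (BGLU23) lay between 12.55 and 13.04 on the 6 arrays. NAI2 was at 9.01, 9.57 and 9.08 in nia1nia2 and at 9.85, 9.83 and 9.44 in nia1nia2noa1-2 (0.49). Neither was called, and 1 of these 2 had an unadjusted p under 0.05 (limma). EXPA7, of root hair cells, was under the floor. RCA, of leaf mesophyll, was at 13.52, 13.55 and 13.29 in nia1nia2 and at 13.71, 13.66 and 13.66 in nia1nia2noa1-2, and was not called. No flower or seed marker was measured, and the part of any shift in tissue makeup was not tested.

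In the nia1nia2 background, noa1-2 was accompanied by higher RNA of QQS and of the photosystem II assembly factor PAM68. The nuclear genes CFM3A, CRR21 and OTP81, whose products splice or edit plastid RNA, were also higher. Lower RNA was seen for AT3G60420 by the brighter of its 2 probe sets, for the pirin PRN and for the organelle genes psbN and nad2. The mean of nad2 was over the floor in nia1nia2 only. By limma on the 6 arrays with Benjamini-Hochberg adjustment over all 6782 genes, 60 genes (0.885%) were higher and 40 (0.590%) were lower in nia1nia2noa1-2 at an adjusted p under 0.05, together 1.47%. A change of at least 2-fold was seen for 16 of the higher and 20 of the lower genes. The median log2 difference was 0.92 over the higher genes and −1.0 over the lower ones, against 0.07 over all genes tested. All 100 called genes had their arrays of the 2 genotypes apart, as had 17.3% of all genes tested upward and 10.1% downward. Most calls were narrow, with an adjusted p between 0.04 and 0.05 for 96 of the 100. At an unadjusted p under 0.05 there were 929 higher and 517 lower genes. These counts, and the shares of 0.885% and 0.590%, are the background for the list counts given below. Centring each array on its median, which moved every difference by −0.10, turned the split to 37 higher and 82 lower, and a new quantile normalization of the 6 arrays gave 50 and 58.

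**Figure D1:**
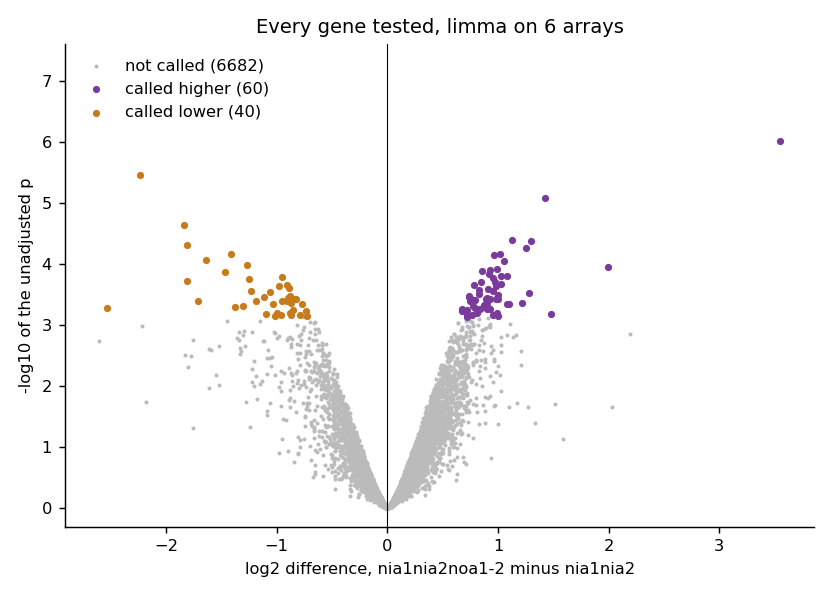
Each point is 1 of 6782 genes, with the log2 difference between nia1nia2noa1-2 and nia1nia2 on the x axis and −log10 of the unadjusted limma p on the y axis. The 60 genes called higher are purple and the 40 called lower are orange, and QQS stands alone at the upper right with a difference of 3.55.

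QQS (AT3G30720), an Arabidopsis-specific gene whose product influences how carbon and nitrogen are divided between starch and protein, changed most. Its log2 intensity was 4.30, 5.45 and 4.41 in nia1nia2 and 8.07, 8.23 and 8.51 in nia1nia2noa1-2. The 2 genotypes were far apart, and the nia1nia2 values lay under the floor of 6, so the size of the difference, 3.55 ± 0.29 (SE, n = 3 arrays a group; adjusted p = 0.00655, limma), is not exact. In Col-0 it was 6.34, 6.09 and 6.04, and in noa1-2 it was 6.37, 6.02 and 6.08. QQS was thus lowest in nia1nia2, highest in nia1nia2noa1-2, and at a mean of 6.16 in both of the other genotypes. The effect of noa1-2 differed between the backgrounds by 3.55 ± 0.35 (adjusted p = 0.000395, limma on 12 arrays).

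AT5G26270, which codes for a protein of unknown function, had the next largest rise among the called genes. It measured 6.28, 7.57 and 6.65 in nia1nia2 and 8.75, 8.67 and 9.05 in nia1nia2noa1-2, a difference of 1.99 ± 0.30 (adjusted p = 0.0455, limma). Even the highest nia1nia2 array, replicate 3, lay below every nia1nia2noa1-2 array. With nitrate reductase intact the same step was 1.91, from 7.44, 7.0 and 6.87 in Col-0 to 9.08, 8.99 and 8.98 in noa1-2. Its neighbour by locus number, AT5G26260, was called in the other direction (−0.88).

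AT2G40960 measured 5.16, 5.54 and 5.30 in nia1nia2 and 6.72, 6.67 and 6.88 in nia1nia2noa1-2, a difference of 1.42 ± 0.15 (adjusted p = 0.0185, limma) whose size is not exact, since the nia1nia2 values lay under the floor. It was also called higher in noa1-2 than in Col-0, by 1.07. The remaining 12 of the 15 largest rises spanned 1.02 to 1.48. Among them were AT4G21870, a small heat shock protein (1.3), AT1G56050, related to GTP-binding proteins (1.28), AT1G65870, of the dirigent family (1.25), AT3G05730, similar to defensins (1.08), and AT4G38660, of the thaumatin family (1.03). AT1G65870 was at 5.63 to 6.08 in Col-0 and noa1-2 alike, at 6.42, 6.07 and 6.35 in nia1nia2 and at 7.57, 7.28 and 7.74 in nia1nia2noa1-2. It was the triple mutant alone that stood clear of the other genotypes for this gene.

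**Figure D2:**
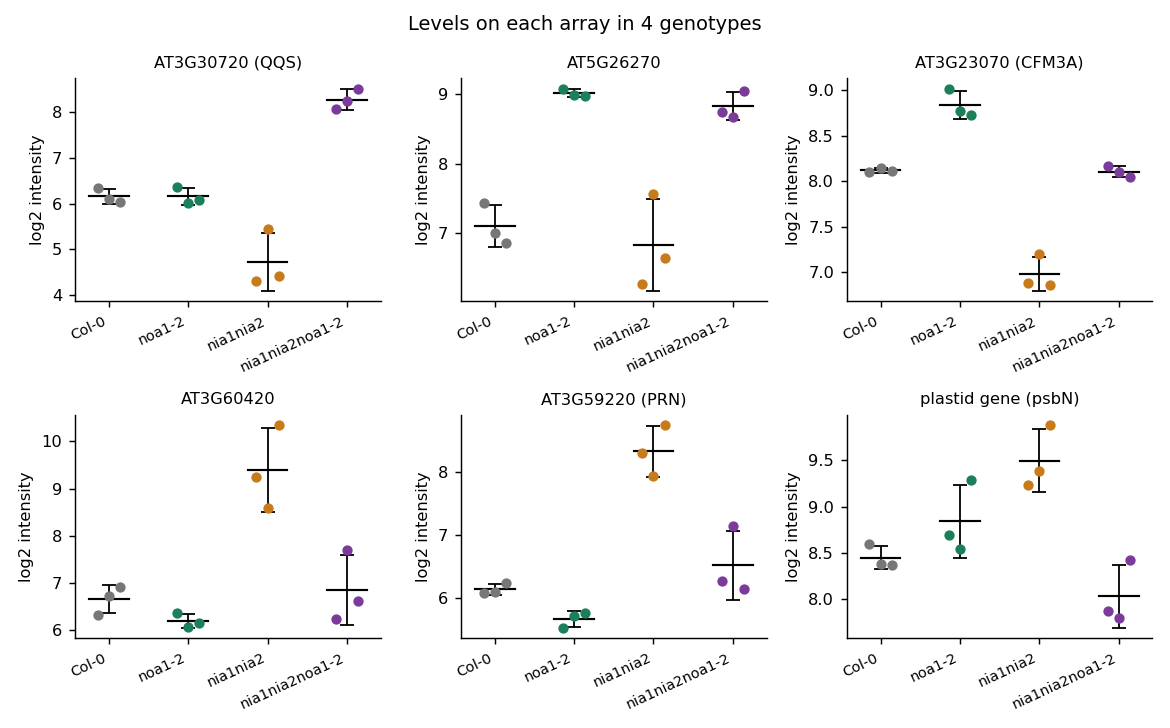
Log2 intensity on each array (points), with the mean (line) and SD (bars) of 3 arrays, for 3 genes called higher (upper row) and 3 called lower (lower row) in nia1nia2noa1-2 than in nia1nia2. QQS is highest in nia1nia2noa1-2 and lowest in nia1nia2, AT5G26270 is high in both genotypes with noa1-2, and AT3G60420 and PRN are high in nia1nia2 only. For AT3G60420 the brighter of its probe sets is shown.

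CFM3A, a chloroplast protein that helps splice group II introns, was at 6.88, 7.20 and 6.86 in nia1nia2 and at 8.17, 8.10 and 8.05 in nia1nia2noa1-2, a difference of 1.13 ± 0.15 (adjusted p = 0.0436, limma). CRR21 and OTP81, pentatricopeptide repeat proteins that are needed for RNA editing at particular sites of the chloroplast, were higher by 0.92 and 0.77. All 3 nia1nia2noa1-2 arrays lay above all 3 nia1nia2 arrays for each of these genes. OTP81 was at 5.50, 5.62 and 5.80 in nia1nia2, under the floor, and was tested through its nia1nia2noa1-2 mean of 6.41. The size of its difference is therefore not exact. Of 10 tested members of this list of organelle RNA editing and splicing factors, 3 were called higher and 0 lower. Over all genes tested, 0.885% were called higher and 0.590% lower. The list was put together after values had been seen. The 10 differences ran from 0.30 to 1.13 with a median of 0.61, against 0.07 over all genes tested. CAF1, CFM3B and LPA66 also had arrays that did not overlap (0.58, 0.64 and 0.66) without passing the test, as 17.3% of all genes had arrays apart upward. Without nia1nia2 replicate 4, 7 of the 10 were called higher, where 9.55% of all genes were. In a fit of all 12 arrays 6 of the 10 were, where 9.91% of all genes were. That fit shares 1 spread per gene over all genotypes, so its standard error is too small for the wider nia1nia2 arrays. Without nia1nia2 replicate 2, 0 of the 10 were called by limma, which then called 0 of all genes (732 were higher at an unadjusted p under 0.05).

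In the comparison of noa1-2 with Col-0, 8 of the 10 were called higher by limma on its own 6 arrays, where 11.9% of all genes were. Their median there was 0.71. That comparison uses none of the nia1nia2 and nia1nia2noa1-2 arrays. The list was still put together after values of these data had been seen, so the 8 are not independent support. CFM3A rose by 0.72 from 8.10, 8.15 and 8.11 in Col-0 to 9.02, 8.77 and 8.73 in noa1-2. The effect of noa1-2 passed the test of a difference between the backgrounds for 0 of the 10, by limma on 12 arrays, where 2.39% of genes were more positive and 0.973% more negative in the nia1nia2 background. OTP84 had the largest difference of effects in size, at −0.71 (adjusted p = 0.0905).

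Other called genes serve the plastid. RAP, required for maturation of chloroplast ribosomal RNA, was at 8.23, 8.21 and 8.14 in nia1nia2 and 8.88, 8.89 and 8.84 in nia1nia2noa1-2, and its difference of 0.68 was, with the equal one of AT5G02830, the smallest that was called. PAM68, an assembly factor of photosystem II, was higher by 0.95, and FZL, a dynamin-like GTPase that shapes thylakoids, by 0.99. The means in Col-0, nia1nia2 and nia1nia2noa1-2 were 8.87, 7.06 and 8.01 for PAM68 and 7.67, 6.21 and 7.21 for FZL. Both thus rose from a level under Col-0 in nia1nia2 and stayed under Col-0. For RAP these means were 8.67, 8.19 and 8.87. In noa1-2 against Col-0, RAP was called higher (0.86), whereas PAM68 was at 0.02 and FZL at 0.04. The effect of noa1-2 was more positive in the nia1nia2 background for PAM68 (difference of effects 0.93, adjusted p = 0.0229, limma on 12 arrays) and for FZL (0.95, adjusted p = 0.0152). For RAP the difference of effects was −0.18 and did not pass.

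Nuclear genes of plastid ribosomal proteins had 0 of 8 tested members called, 3 of them with an unadjusted p under 0.05, and a median of 0.43 (limma). All 8 differences were positive, from 0.10 to 0.71, and for 4 of the 8 all nia1nia2noa1-2 arrays lay above all nia1nia2 arrays, as for 17.3% of all genes tested. Chlorophyll and haem synthesis had 0 of 6 called, 4 with an unadjusted p under 0.05, and a median of 0.54. CHLI2, a subunit of magnesium chelatase, had the largest value of that list, from 8.43, 8.49 and 7.85 to 9.05, 8.78 and 9.10 (0.72 ± 0.20, adjusted p = 0.0946), and PORB, a light-dependent protochlorophyllide reductase, was at −0.30. Without nia1nia2 replicate 4, 1 gene of either list was called higher, where 9.55% of all genes were. In the fit of all 12 arrays, 3 ribosomal protein genes and 3 chlorophyll and haem genes were called higher, where 9.91% of all genes were. CPN60B2, a subunit of the plastid chaperonin, was at 8.68, 9.96 and 9.01 in nia1nia2 and 10.35, 10.44 and 10.49 in nia1nia2noa1-2 (1.21 ± 0.29, adjusted p = 0.0701). These arrays did not overlap, and the width of the nia1nia2 values was larger than that of any other genotype for this gene.

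Other rises fell on single genes of metabolism, transport and cell division. GLDT (AT1G11860), the T protein of the glycine decarboxylase of photorespiration, was at 11.25, 11.20 and 11.21 in nia1nia2 and at 11.93, 11.89 and 12.04 in nia1nia2noa1-2 (0.73 ± 0.13, adjusted p = 0.0455), and it was 1 of 5 tested genes of the Calvin cycle and photorespiration. In Col-0 it was higher still, at 12.59, 12.59 and 12.65. Dihydroxyacid dehydratase (AT3G23940), of branched-chain amino acid synthesis, was called higher both here (0.98) and in noa1-2 against Col-0 (0.95). Riboflavin synthase (AT2G20690) was higher by 0.85. SWEET2, a vacuolar sugar transporter, was the single called gene of 7 tested in its family (1.00). AUR1, a mitotic kinase, was 1 of 3 tested cell division genes (0.87), and TBL45, of the wall acetylation family, was 1 of 13 (0.99). Over all genes tested, 0.885% were called higher.

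The hypoxia response, the set of genes induced when oxygen is short, was among the subjects of the study. Of 16 tested genes of that list, 2 were called higher and 1 lower, beside 0.885% and 0.590% of all genes, and the median was 0.12 against 0.07 over all genes tested. AT4G10270 was at 5.54, 6.06 and 5.34 in nia1nia2 and 7.06, 7.0 and 6.54 in nia1nia2noa1-2 (1.22 ± 0.22, adjusted p = 0.0455), again from a nia1nia2 mean under the floor, and it was at 5.38 to 6.09 in the 6 arrays of Col-0 and noa1-2. The effect of noa1-2 on AT4G10270 was more positive in the nia1nia2 background (1.26, adjusted p = 0.0371). AT1G33055 rose by 1.10 from a nia1nia2 mean under the floor, and AT4G39675 fell by 1.23 on the log2 scale. The other 13 lay between −0.32 and 0.61, and 6 of the 16 had an unadjusted p under 0.05.

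The falls were led by genes that stood high in nia1nia2. AT3G60420, of the phosphoglycerate mutase family, was at 9.24, 8.58 and 10.34 in nia1nia2 and at 6.25, 7.69 and 6.62 in nia1nia2noa1-2, a difference of −2.53 ± 0.47 (adjusted p = 0.0471, limma). In Col-0 it was at 6.33, 6.72 and 6.92. The gene has 2 probe sets that disagree, of which the brighter is given. Their mean gave a smaller difference of −1.28, so the other probe set fell less than the brighter one. The mean was called as well, but it contains the brighter probe set and is not separate support. By the brighter probe set, the nia1nia2 arrays were the highest of the series for this gene, and the nia1nia2noa1-2 arrays overlapped those of Col-0.

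PRN, a pirin of the cupin family that can break down quercetin, behaved alike, at 8.30, 7.94 and 8.74 in nia1nia2 and 6.27, 7.14 and 6.14 in nia1nia2noa1-2 (−1.81 ± 0.29, adjusted p = 0.0455). The putative chitinase AT2G43570 (listed as CHI) was at 7.89, 8.20 and 8.47 against 6.69, 7.07 and 6.55 (−1.42 ± 0.20, adjusted p = 0.0436). AT1G51340, a MATE-family efflux carrier, was called at −1.31, and its nia1nia2noa1-2 mean lay under the floor. For each of these 3 genes the arrays of the 2 genotypes were apart and Col-0 was lower than nia1nia2.

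AT1G64560 had the lowest adjusted p among the falls. It was at 7.23, 7.08 and 6.42 in nia1nia2 and at 4.79, 4.57 and 4.68 in nia1nia2noa1-2 (−2.23 ± 0.21, adjusted p = 0.0119), with 4.88 to 5.64 in Col-0, so that nia1nia2 was the single genotype with values over the floor. AT5G21020 (−1.84) and AT2G05580 (−1.64) were also called lower. Both had their lowest nia1nia2 value in replicate 4, at 7.04 and 6.87, and both were at 5.48 to 5.99 on the 3 nia1nia2noa1-2 arrays.

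Smaller falls were called for genes of varied function. AT3G04000, a chloroplast aldehyde reductase, was at 10.95, 10.57 and 11.18 in nia1nia2 and at 9.90, 9.94 and 9.52 in nia1nia2noa1-2 (−1.11 ± 0.20, adjusted p = 0.0455), while Col-0 was at 7.12, 6.38 and 6.19. The fall thus left it above every Col-0 array. STR18, a sulfurtransferase (−1.06), DELTA-OAT, the mitochondrial ornithine aminotransferase (−0.90), ATMDAR2, a monodehydroascorbate reductase (−0.87), and ATG8H, an autophagy protein (−0.85), were called with it, as were HIS1-3, a stress-induced linker histone (−0.99), and AT5G42050, a protein with a DCD domain of cell death and stress (−0.91). Of these 7 genes, ATG8H alone was called in noa1-2 against Col-0, at −0.41. Cold, ABA and LEA genes had 0 of 5 called, 1 with an unadjusted p under 0.05, and a median of −0.38. LTI30, a dehydrin, had the widest difference of them (−1.32, adjusted p = 0.0701), with arrays that did not overlap.

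Of the genes encoded in the organelles, psbN of the plastid and nad2 of the mitochondrion were called lower. Of 16 mitochondrial genes measured, 6 were tested, with a median of −0.235, and nad2 was the 1 called, where 0.590% of all genes were called lower. The psbN product helps to assemble photosystem II, and its RNA was at 9.23, 9.38 and 9.88 in nia1nia2 and at 7.87, 7.79 and 8.42 in nia1nia2noa1-2 (−1.47 ± 0.23, adjusted p = 0.0455). Col-0 lay at 8.59, 8.38 and 8.37 and noa1-2 at 8.69, 8.54 and 9.29, so the effect of noa1-2 differed in sign between the backgrounds by their means (difference of effects −1.86 ± 0.31, adjusted p = 0.00890). RNA of nad2, a subunit of respiratory complex I, was at 6.41, 6.19 and 5.51 against 4.09, 4.07 and 4.52 (−1.81 ± 0.24), with the nia1nia2noa1-2 values under the floor. It was tested only through its nia1nia2 mean of 6.04. Col-0 and noa1-2 were under the floor as well, at 4.29 to 5.07, so the size of the difference is not exact. The labels state that cDNA was primed with oligo(dT), which captures organelle transcripts only where they carry adenine tails.

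Of 21 plastid genes for transcription, translation and RNA handling, 0 were called here by limma, 5 had an unadjusted p under 0.05, and the median was 0.21, with a range from −0.63 for rpl32 to 1.27 for rps2. In noa1-2 against Col-0, 20 of the 21 were called higher, where 11.9% of all genes were. Their median there was 0.90, against −0.03 over all genes tested. Of 45 plastid genes for photosynthesis, psbN was the single one called here, where 0.885% of all genes were called higher and 0.590% lower. At an unadjusted p under 0.05 there were 7 (limma), and the median was −0.04. Over all 6782 genes 929 were higher and 517 lower at that threshold, so neither the 5 of 21 nor the 7 of 45 stood out. In noa1-2 against Col-0, 26 of the 45 were called higher, beside the same 11.9% of all genes, with a median of 0.43. The effect of noa1-2 was more negative in the nia1nia2 background for 4 of the 21 and 6 of the 45, and more positive for 0 and 0, where 0.973% and 2.39% of all genes tested were. Without nia1nia2 replicate 4, 6 of the 21 were called higher and 1 lower in nia1nia2noa1-2, and 1 of the 45 higher and 5 lower, where 9.55% of all genes were called higher and 4.13% lower.

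The clearest of these was rbcL, the gene of the large Rubisco subunit. It was at 8.12, 7.92 and 8.12 in Col-0, 10.10, 9.72 and 10.82 in noa1-2, 9.75, 10.08 and 9.82 in nia1nia2 and 9.83, 9.78 and 10.18 in nia1nia2noa1-2. The 3 mutants overlapped and Col-0 stood apart below them. The step with noa1-2 was 2.16 in the Col-0 background and 0.05 ± 0.17 in the nia1nia2 background, and the difference of effects was −2.11 (adjusted p = 0.00776). Among the expression genes, rps16, of the small ribosomal subunit, rose by 1.84 in noa1-2 against Col-0 and was at 0.16 ± 0.28 here (difference of effects −1.68, adjusted p = 0.0134). By contrast rpoC1, a subunit of the plastid RNA polymerase, had arrays apart in both backgrounds, from 9.82, 10.89 and 10.36 in nia1nia2 to 11.37, 11.47 and 11.64 in nia1nia2noa1-2 (1.14 ± 0.25, adjusted p = 0.0630), beside 1.44 in noa1-2 against Col-0. The spread of nia1nia2 was wide for many of these genes. For rps2 the 3 nia1nia2 arrays were at 7.19, 8.28 and 9.43, and its difference of 1.27 had an adjusted p of 0.158.

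**Figure D3:**
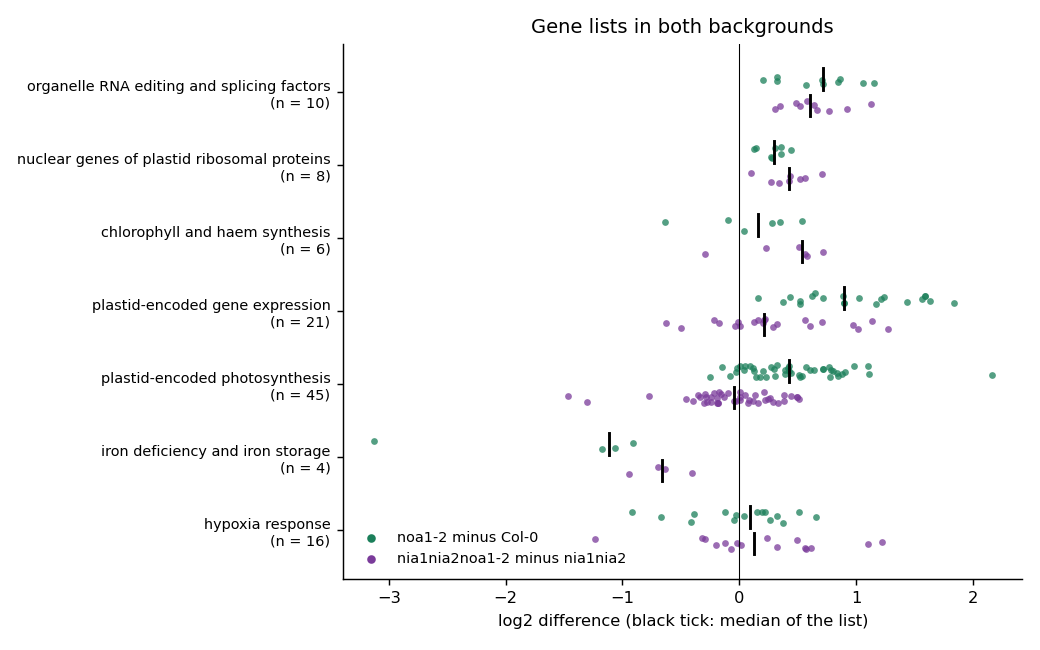
Each point is a tested gene of the list named at the left, with the log2 difference of noa1-2 minus Col-0 in green and of nia1nia2noa1-2 minus nia1nia2 in purple, and black ticks give the medians. The plastid-encoded lists have medians of 0.90 and 0.43 in green and 0.21 and −0.04 in purple, whereas the nuclear editing and splicing factors have medians of 0.71 and 0.61.

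Across all 6782 genes, the step with noa1-2 in the 2 backgrounds can be set side by side, since the comparisons share no array. Pearson's r across genes was 0.28 and Spearman's rho 0.24, where genes are not independent replicates. Of the 60 genes higher in nia1nia2noa1-2, 25 were called higher and 0 lower in noa1-2 against Col-0, where 11.9% and 11.3% of all genes were called, and the noa1-2 mean was above Col-0 for 50 of them, as for 45.4% of all genes. Their median was 0.27, against −0.03. Of the 40 genes lower in nia1nia2noa1-2, 13 were called lower and 1 higher in noa1-2, and 33 had a noa1-2 mean below Col-0, as had 54.6% of all genes. The gene called in opposite directions was AT1G65500, at 9.62, 10.08 and 10.84 in nia1nia2, 8.65, 8.71 and 8.04 in nia1nia2noa1-2, 7.49, 6.96 and 7.83 in Col-0 and 8.07, 8.84 and 8.56 in noa1-2. All 3 mutants were above Col-0 for this gene, and nia1nia2 was highest.

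**Figure D4:**
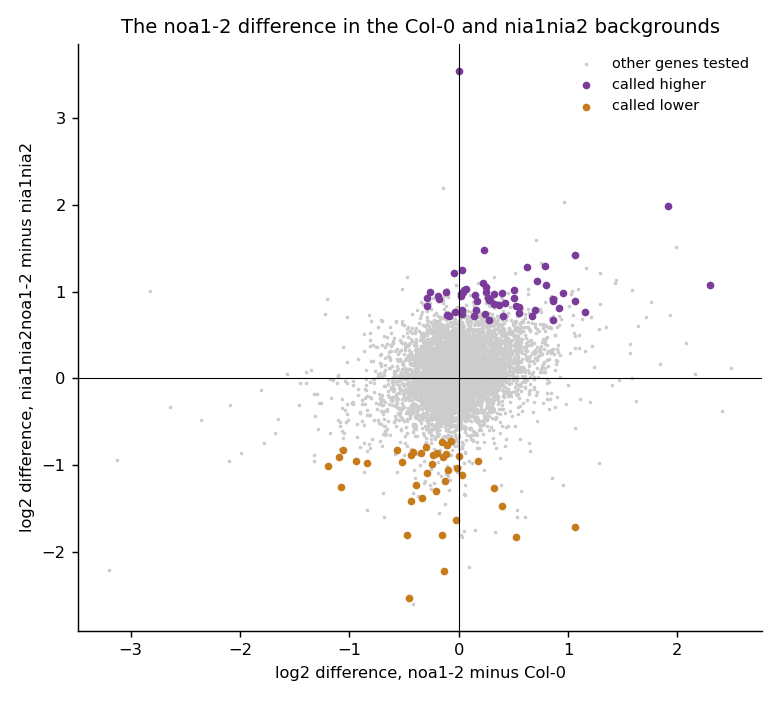
Each point is 1 of 6782 genes, with the log2 difference of noa1-2 minus Col-0 on the x axis and of nia1nia2noa1-2 minus nia1nia2 on the y axis. Purple points (60 genes called higher) lie mostly to the right of 0 on the x axis and orange points (40 genes called lower) mostly to the left, and QQS is at 3.55 above 0 on the x axis.

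The difference between the backgrounds passed the test for 162 genes that were more positive and 66 that were more negative in the nia1nia2 background (limma on 12 arrays, which share 1 spread per gene). Median centring turned this split to 109 and 269 and a new quantile normalization to 137 and 133. This difference contains the step that called the 60 and 40 genes, so its direction in them is not independent of those calls. Beside 2.39% and 0.973% of all genes, 18 of the 60 higher genes were more positive and 1, AT2G36885, more negative. AT2G36885 rose by 1.08 here and by 2.30 in noa1-2 against Col-0. Of the 40 lower genes, 14 were more negative and 0 more positive.

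The largest differences of effect also fell on genes that were not called here. AT5G14650, of the polygalacturonases that cut pectin, was at 6.83, 7.16 and 7.75 in Col-0 and 4.32, 4.26 and 4.68 in noa1-2, but at 5.88, 7.33 and 6.42 in nia1nia2 and 8.12, 7.76 and 6.76 in nia1nia2noa1-2. It was low in noa1-2 alone, and the 2 genotypes with the nia mutations overlapped. ChiC, a class V chitinase, was lower in noa1-2 than in Col-0 by 1.21 and was at 0.91 ± 0.18 here (adjusted p = 0.0505). IMA1 (AT1G47400), a peptide of the iron deficiency response, was at 9.49, 9.46 and 9.30 in Col-0 and 6.55, 6.51 and 5.81 in noa1-2, while nia1nia2 at 10.20, 10.03 and 8.95 overlapped nia1nia2noa1-2 at 9.06, 8.10 and 9.20. All 4 tested genes of iron deficiency and storage were called lower in noa1-2 against Col-0, where 11.3% of all genes were. Here 0 of 4 were called (limma), where 0.590% of all genes were called lower, so 0 called does not set this list apart. All 4 differences were negative here too, from −0.94 to −0.41, and 3 had an unadjusted p under 0.05 (limma). The medians were −1.12 in noa1-2 against Col-0 and −0.66 here. IMA1 was the single one of the 4 with a difference of effects that passed (2.19, adjusted p = 0.0247, limma). Without nia1nia2 replicate 4, 2 of the 4 were called lower, where 4.13% of all genes were.

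In the negative direction, UPOX (AT2G21640), a nuclear gene of a mitochondrial protein that is raised by oxidative stress, was at 5.79, 5.56 and 5.90 in Col-0 and at 7.81 to 8.51 on the 9 arrays of the 3 mutants. The mutants overlapped for UPOX, which gave a difference of effects of −2.37 ± 0.23 (adjusted p = 0.000395). AT1G29850 was at 11.93, 12.05 and 11.47 in noa1-2 and between 9.0 and 10.26 in the other genotypes, a difference of effects of −2.79. AT5G05600, an oxygenase that inactivates jasmonate, was lowest in Col-0, at 6.39, 6.31 and 6.59, and was at −0.98 here and at 1.28 in noa1-2 against Col-0.

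Lists with no member called included nitrate response, with 0 of 4 and a median of 0.19, and mitochondrial stress, with 0 of 7 and −0.02. Others were UDP-glucosyltransferases, with 0 of 27 and −0.07, expansins, with 0 of 9 and −0.13, and nuclear photosynthesis genes, with 0 of 9 and 0.13. Over all genes tested, 0.885% were called higher and 0.590% lower, so 0 called does not set lists of these sizes apart. At an unadjusted p under 0.05 there were 1, 2, 4, 0 and 1 of these (limma), beside 929 higher and 517 lower of all 6782 genes. Without nia1nia2 replicate 4, 2 mitochondrial stress genes and 1 UDP-glucosyltransferase were called lower, where 4.13% of all genes were. HHO1, a nitrate-induced repressor, was at 10.10, 9.26 and 10.38 in nia1nia2 and 9.83, 9.81 and 9.55 in nia1nia2noa1-2, against 4.57 to 5.23 in Col-0 and noa1-2. It tracked the nia mutations and did not separate the 2 genotypes that carry them. Jasmonate, salicylic acid, heat shock, camalexin and phosphate lists had no tested member.

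The number of calls rested on single arrays. Leaving out nia1nia2 replicate 4 gave 648 higher and 280 lower genes, and leaving out nia1nia2 replicate 3 gave 239 and 125. Leaving out nia1nia2 replicate 2, or nia1nia2noa1-2 replicate 2 or 3, gave 0 and 0 by limma, with 732 and 486, 585 and 358, and 599 and 330 at an unadjusted p under 0.05, and leaving out nia1nia2noa1-2 replicate 1 gave 1 and 0, with 527 and 336. The difference of QQS lay between 3.34 and 3.92 with any of the 6 arrays left out, and that of AT3G60420, by its brighter probe set, between −2.95 and −2.06. Over all alternatives the adjusted p of QQS ran from 1.16e-05 to 0.133 and that of AT3G60420 from 0.00258 to 0.242 (limma and, for 1 alternative, the methods' test).

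**Figure D5:**
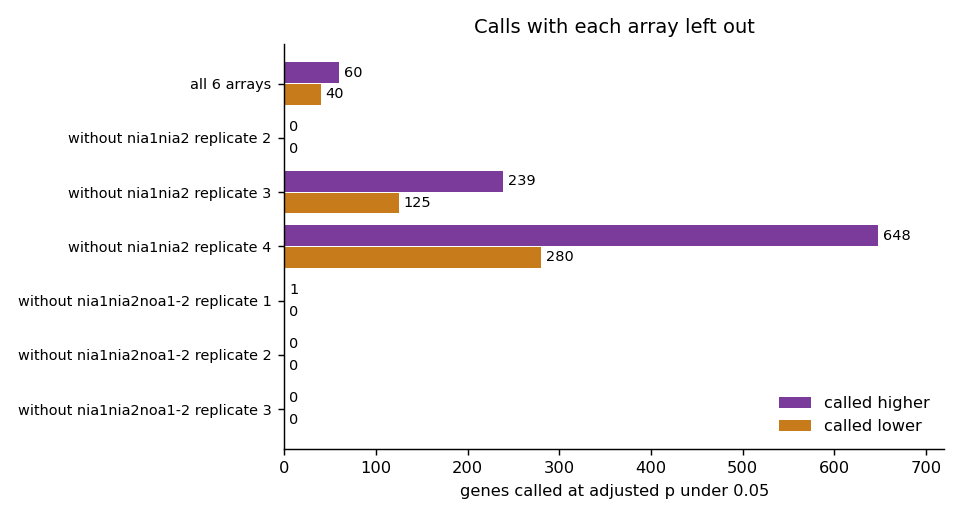
Bars give the number of genes called higher (purple) and lower (orange) in nia1nia2noa1-2 than in nia1nia2 at an adjusted p under 0.05, with all 6 arrays and with each array left out. The counts run from 0 to 648 higher and from 0 to 280 lower.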

How the data were processed

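RNA of whole seedlings was hybridized to Affymetrix ATH1 arrays, 12 in all. Per the methods, the authors applied RMA (background correction, normalization and summary) before deposit, and the labels name limma with no version. What they deposited is 1 linear intensity per probe set and array, whose log2 always has 2 decimals. Rows are Affymetrix probe sets although the methods name a custom chip definition, and the one used for these values is unknown. The platform annotation pairs 13513 of the 22810 probe sets with a single gene, of which 13436 were found in RefSeq's TAIR10.1 table and took their symbols from it. It pairs 503 with more than 1 gene and 8730 with none, which were not used, nor were 64 controls. Of several probe sets of a gene (146 genes) the brightest was kept. No coordinates or sequences were used here.

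Log2 intensities of the 6 arrays were fitted with limma 3.58.1 in R 4.3.3 (lmFit, eBayes, 4 residual degrees of freedom), with Benjamini-Hochberg adjustment over 6782 genes and a threshold of 0.05. The difference of effects used all 12 arrays (8 residual degrees of freedom). No slide or scan data were used. The number of arrays limits the precision. Arrays of a genotype shared equal log2 values for at most 3.17% of genes, so none was a copy. The procedure was tested on simulated data. Tables came from pandas 2.3.3 and numpy 2.4.6 under Python 3.11.15, and figures from matplotlib 3.10.9.

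Named genes were the 15 largest rises and falls among called genes with arrays apart, up to 4 called members per list and direction, up to 3 uncalled members of lists with fewer than 2 called, and the 5 largest differences of effect in each direction. Other genes named were chosen after their values were seen. Members, lists and tests were chosen with earlier results of these data known, and the list of RNA editing and splicing factors after values were seen. Alternatives were other filters, tests, scalings, weights, a replicate block, all 12 arrays and each array left out.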

Additional observations from a re-analysis of the deposited data

Results flagged for a closer look

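Results were singled out where the effect of noa1-2 differed between the Col-0 and nia1nia2 backgrounds by a test of the difference itself (limma on 12 arrays, Benjamini-Hochberg over 6782 genes). The effect was more positive in the nia1nia2 background for 162 genes and more negative for 66. The 5 largest more positive differences were those of AT5G14650 (3.83), QQS, AT3G30720 (3.55), the seed-type LEA gene M17, AT2G41260 (2.33), IMA1, AT1G47400 (2.19), and ChiC, AT4G19810 (2.12). For M17 the nia1nia2noa1-2 arrays were at 5.93, 5.05 and 7.34, of which only replicate 3 was over the floor of 6. The 9 arrays of the other genotypes were at 3.52 to 4.14, all under the floor. M17 was tested only through its nia1nia2noa1-2 mean of 6.11, so the size of its difference is not exact. Its difference of effects was called under 8 of 18 alternatives. The 5 largest more negative differences were those of AT1G29850 (−2.79), AT1G65500 (−2.78), UPOX, AT2G21640 (−2.37), AT5G21020 (−2.36) and AT5G05600 (−2.26). Of the 3 noa1-2 arrays of AT5G21020, replicate 3 was at 7.53 and the others at 5.90 and 6.02. Groups of 3 arrays are too small for a test of single outlying arrays.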

How the results depend on the processing

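The differences of the 34 genes named by rule and called kept their sign under each alternative run on them, of which a mean of at least 7 held 25 of the 34 and the test of all probe sets was not followed by gene, but most calls sat close to the threshold. Against 60 higher and 40 lower genes, limma on all 12 arrays gave 672 and 368, with 60 and 39 of the original genes among them. Fits of all 12 arrays share 1 spread per gene, too narrow for the nia1nia2 arrays, so they call too readily in this comparison. Testing all 13356 genes with no filter gave 2 and 1. The methods' t-test gave 777 and 432 unadjusted and 1 and 0 after Benjamini-Hochberg. Median centring gave 37 and 82, weights by genotype 37 higher, and a 2-fold minimum 16 and 20. All probe sets other than controls, an alternative chosen after seeing the data, gave 134 and 79. Leaving out 1 array gave 0 to 648 higher and 0 to 280 lower genes, as given above by array.

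The nia1nia2 replicates are numbered 2 to 4 and the others 1 to 3. Deviations of same-numbered nia1nia2 and nia1nia2noa1-2 arrays correlated at −0.11 and 0.29 over the 2 shared numbers. That is too few to tell whether the numbers pair the arrays, and Col-0 and noa1-2 were not part of this check. With the replicate number as a block over all 12 arrays, 1153 genes were higher and 511 lower, the difference of effects was more positive for 419 genes and more negative for 186, and ccb382, a mitochondrial gene not called otherwise (−0.12), was at 0.54 and called.

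For the difference of effects, median centring gave 269 and quantile normalization 133 more negative genes against 66. Weights by genotype, added after seeing the data, gave 123 and 52. Leaving out 1 array gave 46 to 570 more positive and 24 to 228 more negative genes. The counts were 86 and 42, 73 and 27, and 54 and 31 without Col-0 replicates 1, 2 and 3, 91 and 33, 51 and 33, and 55 and 29 without noa1-2 replicates 1, 2 and 3, and 46 and 24, and 98 and 41 without nia1nia2noa1-2 replicates 1 and 3. They were 202 and 110, 469 and 194, and 570 and 228 without nia1nia2 replicates 2, 3 and 4. Of the 10 genes named for it, 7 to 10 stayed called with any array left out. With 1 array left out, a group of 2 is assumed to vary like the others. The cause of these shifts was not tested. Signal over background limits genes under the floor, which held the nia1nia2 mean of 14 called higher genes and the nia1nia2noa1-2 mean of 6 called lower ones.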
